A study of Mus musculus with 8 samples.

Results

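The genes described here are 51 mouse genes of RNA splicing, taken as a list of names: the SR proteins, the SR-related and Tra2 proteins, the scaffolds of nuclear speckles, 9 spliceosome components, the CLK kinases and the heterogeneous nuclear ribonucleoproteins (hnRNPs) together with PTBP1. All 51 were among the 50902 genes of the expression table, and 50 of them passed the filter on low values that left 9000 genes for testing. The gene left out, Srsf12, had 45, 32, 39 and 39 reads in the WT libraries of replicates 1 to 4 and 24, 32, 44 and 35 reads in the ΔTAM libraries.

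RNA sequencing was performed on 4 libraries of ESC + F/H-BAZ2A WT and 4 libraries of ESC + F/H-BAZ2A ΔTAM, 8 in all. Both are mouse embryonic stem cells (ESCs) of the E14 line, grown in N2B27 medium with LIF/2i, that carry a Flag- and HA-tagged BAZ2A transgene resistant to the siRNA and inserted with the PiggyBac transposase. BAZ2A (TIP5) is the large subunit of the nucleolar remodelling complex, its TAM domain binds RNA, and the ΔTAM transgene lacks this domain. All 8 libraries came from cells transfected with siRNA-Baz2a against the endogenous transcript and collected 3 days later, so neither condition holds untreated ESCs. The transgenic lines were grown from single cells after puromycin selection, so the conditions differ in their line of origin, and a difference between the transgenes cannot be told apart from a difference between the lines. The labels do not say whether the 4 libraries of a condition came from separate cultures. P-values therefore measure the spread between these libraries, which may be technical.

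The siRNA that all libraries share is shown because it acts on the gene whose transgene differs between the conditions. Its letters matched a coding stretch of exon 16 of the 30 exons of Baz2a (chr10:128121300-128121318, + strand, mm10), in the sense orientation and in no other annotated gene.
siRNA-Baz2a: cuuaacagcuccaccauua

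As a check of the labels, Baz2a itself was measured at 9.95, 10.3, 10.5 and 11.2 RPKM (reads per 1000 bases of gene span and 1000000 reads of the library) in the WT libraries and at 17, 18.6, 18.5 and 18.9 RPKM in the ΔTAM libraries. The value sums the endogenous gene and the transgene, so it does not show whether the domain was deleted, and it was 74.1% higher in ΔTAM (adjusted p = 3.4e-05). The part of this difference in the results below was not tested. Reads on genes numbered 6573212 to 8680058 per library, and no library was set aside. The 10 ESC markers summed to 370 to 380 RPKM in WT and 299 to 326 RPKM in ΔTAM. Of these, 6 fell at an adjusted p under 0.05, beside 15.9% of all tested genes. Utf1 fell by 51.7%, Fgf4 by 29.3%, Sox2 by 25.2%, Klf4 by 24%, Dppa5a by 17.7% and Esrrb by 14.5%. The other ESC markers did not pass, with Nanog at 19.4 to 19.7 RPKM in WT and 18.7 to 20.8 RPKM in ΔTAM. Dppa5a made up most of the sum, at a mean of 283 RPKM in WT and 233 RPKM in ΔTAM. No gene of the 6 primitive endoderm and 6 fibroblast markers passed the filter, and Col3a1 and Lum were at 0 in every library. The 5 neural markers summed to 0.70 to 0.814 RPKM in WT and 0.458 to 0.543 RPKM in ΔTAM. The part of these marker differences in the results on splicing genes was not tested.

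SR proteins bind RNA through RNA recognition motifs and carry a domain of repeated arginine and serine, whose phosphorylation by CLK and SRPK kinases releases them from nuclear speckles to sites of splicing. They mostly favour inclusion of the exons they bind, whereas hnRNPs coat nascent RNA and often repress splice sites. Many genes of both families regulate themselves through exons that bring in an early stop codon and send the transcript to nonsense-mediated decay. Nuclear speckles are bodies between chromatin regions that concentrate splicing factors around the scaffolds SON and SRRM2 and contain the long noncoding RNA Malat1.

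Of the 50 genes tested, 23 rose and 2 fell at an adjusted p under 0.05, and 25 did not pass. Among all 9000 genes tested, 19.9% rose and 15.9% fell. The median log2 fold change of the 50 genes, ΔTAM minus WT on the scale of log2(RPKM + 0.1), was 0.105, against 0.01 over all genes. The values ran from -0.14 for Rbm39 to 0.35 for Srsf6, so every change was below the size threshold of 0.58 in either direction with an unadjusted p under 0.05, which 3.79% of all genes passed. The 4 ΔTAM libraries lay entirely above the 4 WT libraries for 21 of the 50 genes and entirely below for 2, against 20.5% and 16.7% of all genes. Of the 44 that averaged 1 RPKM or more, 22 rose and 2 fell, beside 26.1% and 17.5% of all genes at that level. After quantile normalization the split was 18 higher and 4 lower of 50, beside 17.4% and 19.1% of all genes. In bulk RNA, fewer cells of a type and less RNA per cell cannot be told apart. When the read numbers recovered from the RPKM values were tested with voom, 28 of 51 rose and 3 fell, beside 21.9% of all genes in each direction. Srrm2, Sf3b1, Sf3a1, Hnrnpab and Hnrnpd were the added rises and Snrpa the added fall.

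**Figure D1:**
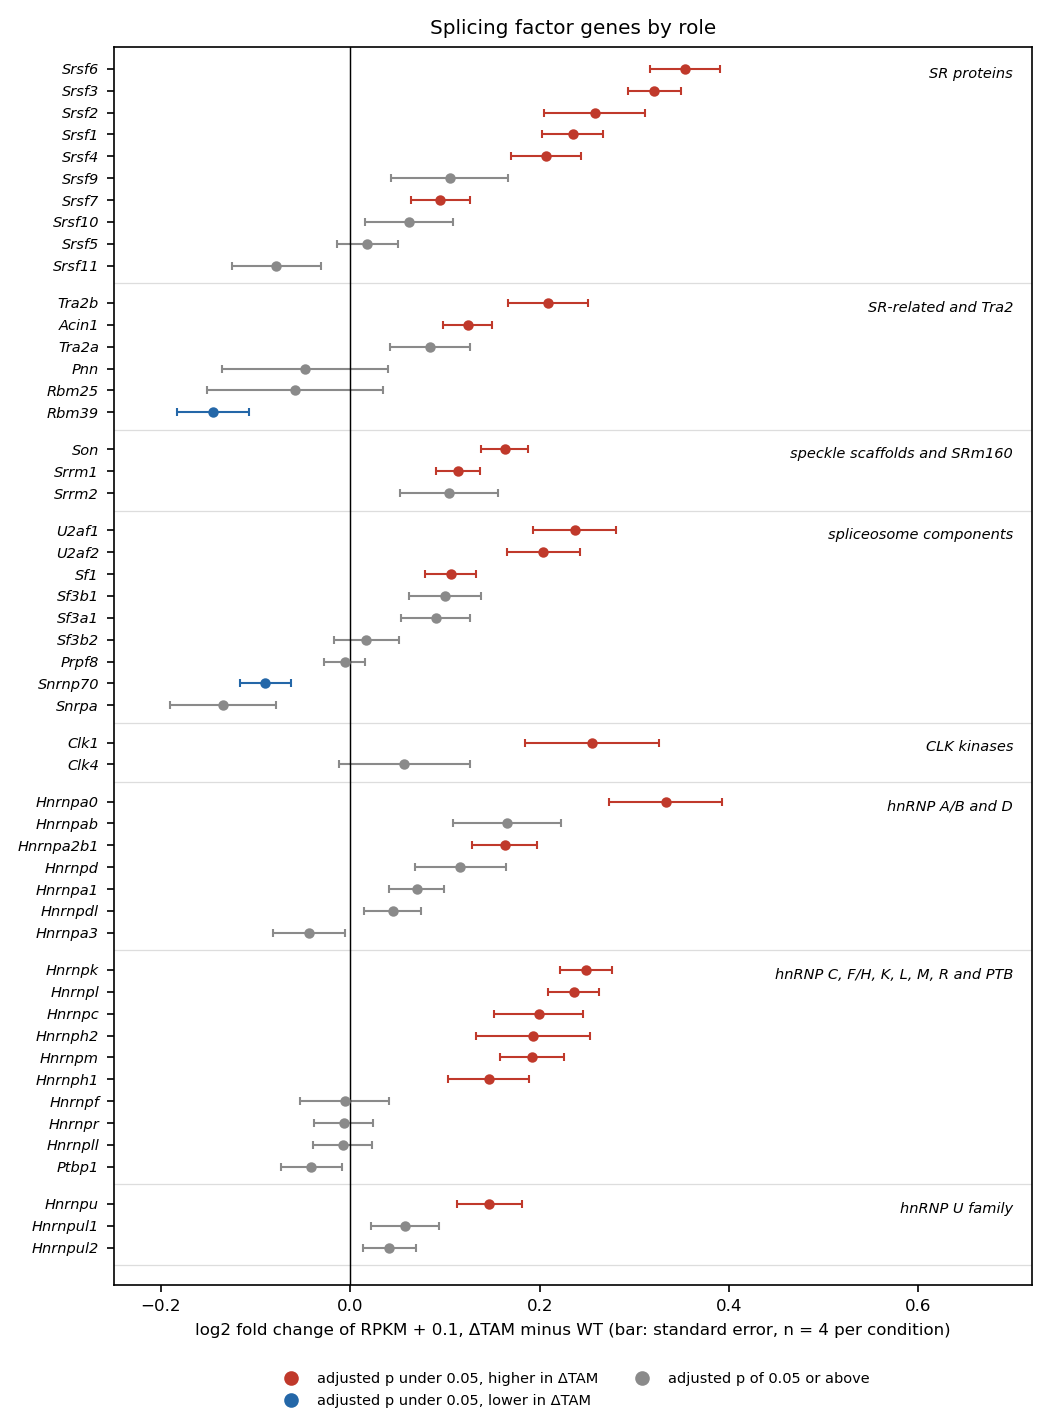
Log2 fold change of each of the 50 tested splicing genes on the horizontal axis (ΔTAM minus WT, log2 of RPKM + 0.1), with the genes grouped by role on the vertical axis, bars for the standard error and colour for the call. The points run from -0.14 for Rbm39 to 0.35 for Srsf6, with 23 called higher and 2 called lower.

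**Figure D2:**
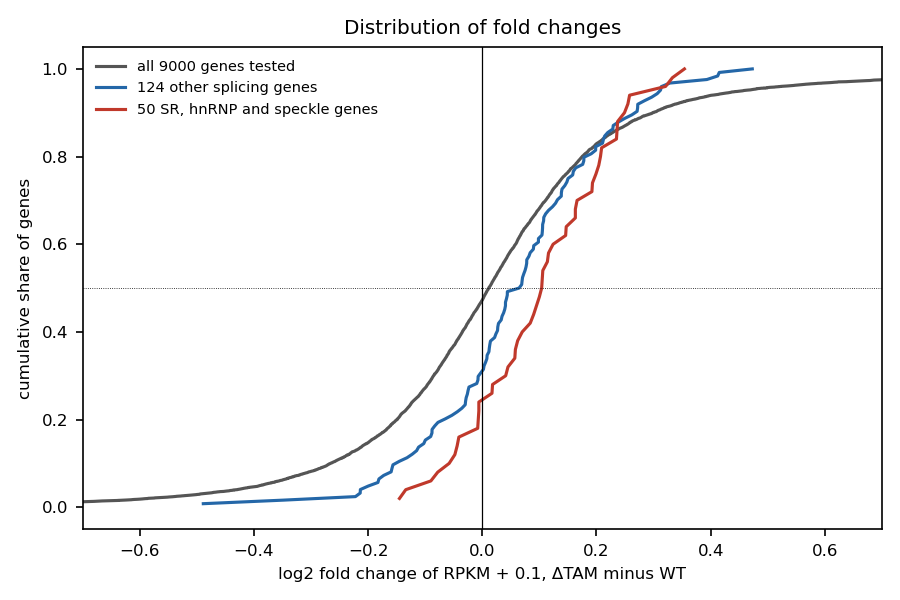
Cumulative share of genes (vertical axis) by log2 fold change (horizontal axis, ΔTAM minus WT) for the 50 splicing genes, 124 other splicing genes of the 6 pathway lists and all 9000 genes tested. The curves cross the middle of the vertical axis at 0.105, 0.07 and 0.01.

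Of the 10 SR proteins tested, 6 rose and none fell, with a median log2 fold change of 0.16. Among all tested genes 19.9% rose and 15.9% fell, and among those averaging 1 RPKM or more 26.1% and 17.5%. Srsf6 (chr2:162931528-162937121, mm10), which encodes SRp55, changed most of the 50 genes. It stood at 8.20, 8.18, 8.48 and 8.08 RPKM in WT and at 9.87, 10.7, 11 and 10.6 RPKM in ΔTAM. Every ΔTAM library was above every WT library, and the difference of 28.2% corresponded to a log2 fold change of 0.35 (SE 0.04, adjusted p = 3.30e-04). Srsf3 (chr17:29032673-29043366), the smallest SR protein and an adaptor for mRNA export, gave 4.48, 4.50, 4.57 and 4.61 RPKM in WT and 5.48, 5.80, 5.90 and 5.60 RPKM in ΔTAM. The WT libraries of this gene differed little from each other, and the rise of 25.5% had a log2 fold change of 0.32 (SE 0.03, adjusted p = 1.67e-04). Srsf2 (chr11:116849901-116853094) encodes the SR protein SC35. Its values were 14.0, 13.5, 14.9 and 13.6 RPKM in WT and 15.5, 17.8, 17.5 and 16.2 RPKM in ΔTAM. The groups did not overlap, although ΔTAM replicate 1 was close to WT replicate 3, and the log2 fold change was 0.26 (SE 0.05, adjusted p = 0.00741). The opposite strand of Srsf2 holds Mettl23 over 3194 bases. Whether the counting used strand is not given in the sources used here, so reads of 1 gene may have been counted for the other. The lengths given are overlaps of whole gene spans, introns included, and overlap of exons was not examined. In GENCODE vM21 the same limit holds for Acin1 with Gm17606 (6133 bases), Hnrnpab with Phykpl (4390 bases) and Ptbp1 with Plppr3 (4297 bases) on opposite strands. On the same strand Srsf4 shares 4610 bases with A930004J17Rik, Hnrnpul2 4370 bases with AC129217.1, Srsf11 2470 bases with Gm43362 and Hnrnpm 1169 bases with March2. Shorter overlaps, and others on opposite strands, exist for further genes.

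Srsf1, the founding member of the family, was at 11.8 ± 0.287 RPKM in WT and rose to 13.9 ± 0.507 RPKM in ΔTAM (SD, n = 4 each). Its log2 fold change was 0.23 (SE 0.03, adjusted p = 0.00125). Srsf4 was near the filter at 0.148 ± 0.00757 RPKM in WT and 0.186 ± 0.00739 RPKM in ΔTAM (SD, n = 4 each). Its 25.8% difference was as large as that of Srsf3, but the pseudocount reduced the log2 fold change to 0.21 (adjusted p = 0.00381), and voom gave 0.335. Srsf7 went from 6.70 to 7.16 RPKM and was the weakest call, with an adjusted p of 0.04995. It passed neither with the replicate number as a block (adjusted p = 0.0772) nor when any library other than WT replicate 4 was left out, and among the other alternatives it passed only with the filter at 1 RPKM and with voom (adjusted p = 0.0282). The remaining SR proteins did not pass. Srsf5 was at 12.3 and 12.5 RPKM in WT and ΔTAM, Srsf9 at 2.01 and 2.17, Srsf10 at 2.04 and 2.13, and Srsf11 at 1.74 and 1.64.

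**Figure D3:**
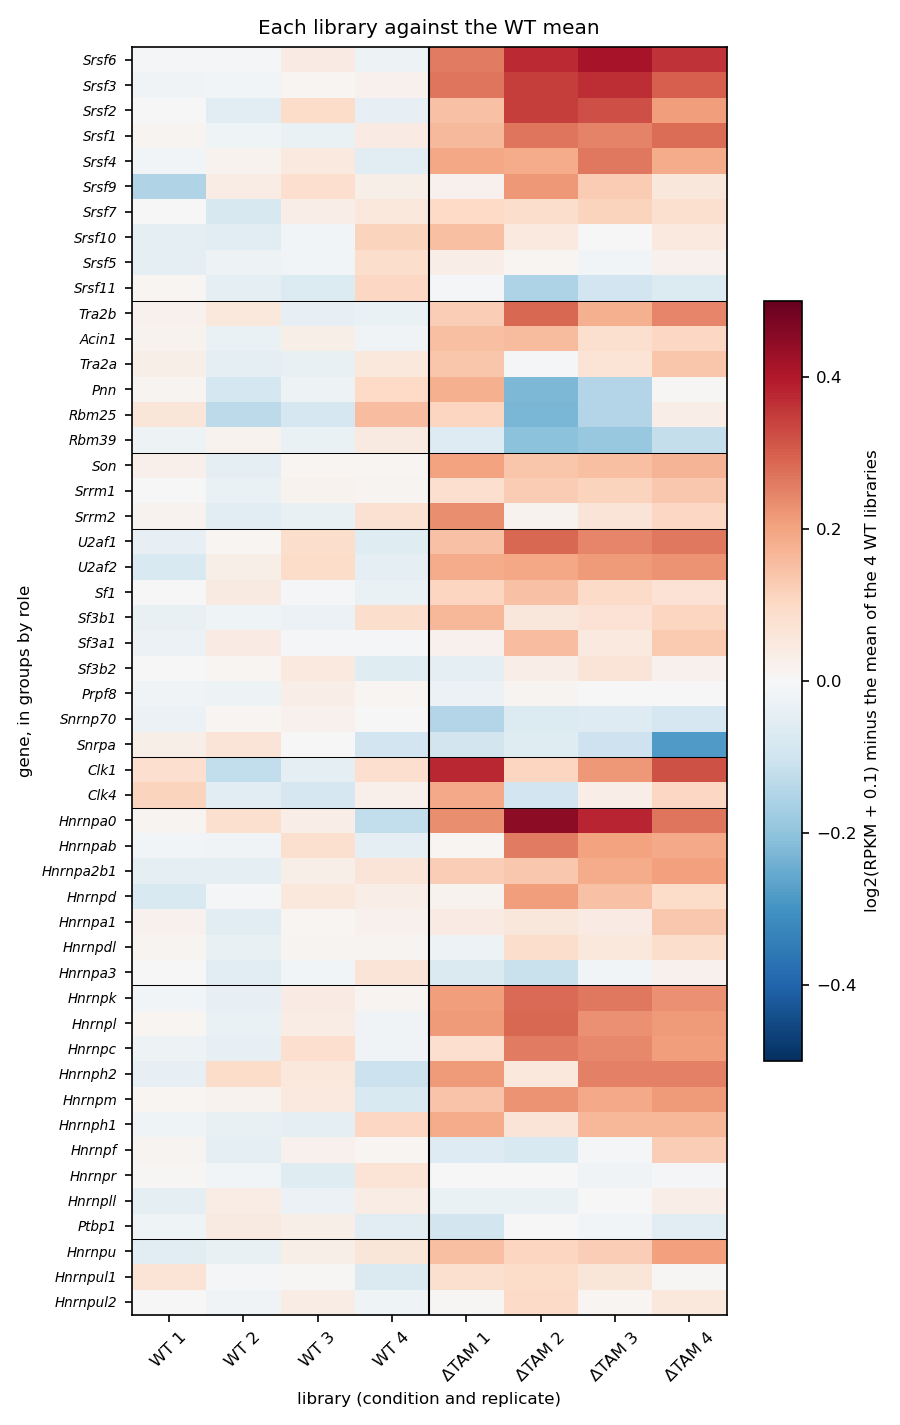
Colour shows log2(RPKM + 0.1) of each library minus the mean of the 4 WT libraries, for the 50 tested splicing genes (rows, in groups by role) and the 8 libraries (columns). For 21 genes all 4 ΔTAM libraries lie above all 4 WT libraries, and for Rbm39 and Snrnp70 they lie below.

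Among the 6 SR-related and Tra2 genes 2 rose and 1 fell, and the median was 0.02. These counts were near the shares of 26.1% and 17.5% among all genes at 1 RPKM or more. Of the 6 genes, Rbm25 averaged just below that level. Tra2b (chr16:22244549-22266005), an RS-domain activator that binds GAA-rich exonic enhancers, stood at 1.29, 1.32, 1.23 and 1.24 RPKM in WT and 1.39, 1.57, 1.45 and 1.52 RPKM in ΔTAM. It rose by 16.9% without overlap (log2 fold change 0.21, SE 0.04, adjusted p = 0.0071). Its paralog Tra2a was at 1.79 ± 0.0659 and 1.90 ± 0.0949 RPKM (SD, n = 4 each) and did not pass (adjusted p = 0.157). Acin1, a component of the apoptosis- and splicing-associated complex, rose from 1.05 to 1.16 RPKM (adjusted p = 0.0086). Rbm39 (chr2:156147239-156180238), or CAPERα, a splicing factor and coactivator related to U2AF2, showed the largest fall. It was at 1.87, 1.93, 1.86 and 1.97 RPKM in WT and at 1.82, 1.64, 1.66 and 1.75 RPKM in ΔTAM. No ΔTAM library reached the WT range, and the log2 fold change was -0.14 (SE 0.04, adjusted p = 0.0218). This call was lost without WT replicate 2 (adjusted p = 0.0549), WT replicate 4 (0.0515), ΔTAM replicate 2 (0.0535) or ΔTAM replicate 3 (0.0584). Pnn and Rbm25, whose products associate with the exon junction complex and the U1 snRNP respectively, did not pass. Their ΔTAM libraries scattered widely, from 3.00 to 4.00 RPKM for Pnn and from 0.851 to 1.10 RPKM for Rbm25.

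Of the 2 speckle scaffold genes, Son was called and Srrm2 was not, and Srrm1, placed in the same group, was called. The median log2 fold change of these 3 genes was 0.11. Son (chr16:91647506-91679221) encodes a large scaffold with an RS domain and stood at 1.99, 1.89, 1.97 and 1.97 RPKM in WT and at 2.26, 2.16, 2.18 and 2.21 RPKM in ΔTAM. The groups were separate and tight, with a log2 fold change of 0.16 (SE 0.02, adjusted p = 0.00207). It shares 2414 bases with Donson on the opposite strand. Srrm2 (chr17:23790662-23824741), which encodes SRm300, gave 4.82, 4.59, 4.64 and 5.03 RPKM in WT and 5.62, 4.82, 4.99 and 5.13 RPKM in ΔTAM. These groups overlapped, and the log2 fold change of 0.10 (SE 0.05) did not pass (adjusted p = 0.157), whereas voom called it with 0.11 (adjusted p = 0.027). Srrm1 (chr4:135320484-135353321), which encodes the coactivator SRm160, was at 2.31, 2.25, 2.34 and 2.33 RPKM in WT and at 2.45, 2.53, 2.50 and 2.54 RPKM in ΔTAM. It rose by 8.54% (log2 fold change 0.11, SE 0.02, adjusted p = 0.00696), a call lost after quantile normalization (adjusted p = 0.0644).

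**Figure D4:**
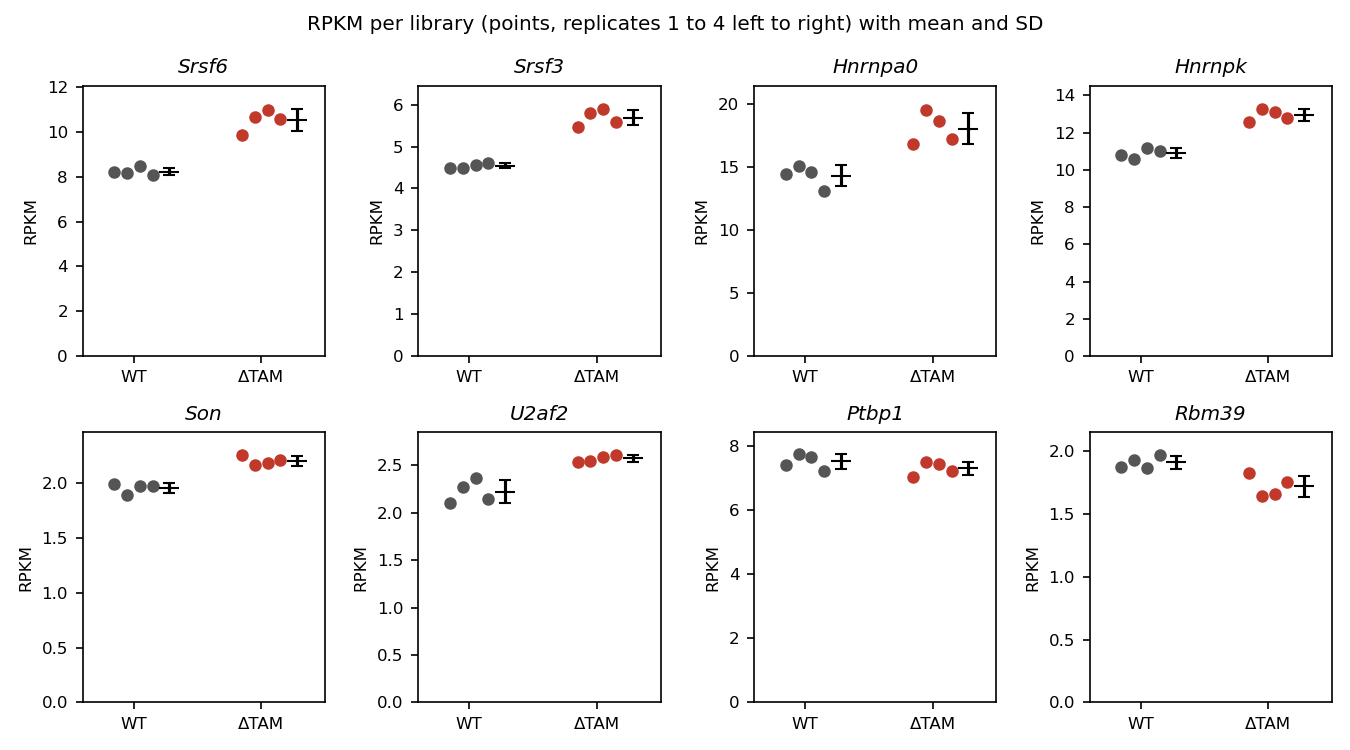
RPKM (vertical axes, from 0) of 8 splicing genes in each of the 4 WT and 4 ΔTAM libraries, with mean and SD (n = 4) beside the points. Srsf6, Srsf3, Hnrnpa0, Hnrnpk, Son and U2af2 lie higher in every ΔTAM library, Rbm39 lies lower, and the values of Ptbp1 overlap.

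Of the 9 spliceosome components, 3 rose and 1 fell, with a median of 0.09, beside shares of 26.1% and 17.5% among all genes averaging 1 RPKM or more. U2af1 (chr17:31647082-31658754), the subunit of the U2 auxiliary factor that contacts the AG dinucleotide, stood at 2.15, 2.23, 2.36 and 2.12 RPKM in WT and 2.46, 2.72, 2.64 and 2.68 RPKM in ΔTAM, a log2 fold change of 0.24 (SE 0.04, adjusted p = 0.00451). U2af2 (chr7:5062143-5079938), the subunit that binds the polypyrimidine tract, gave 2.10, 2.27, 2.37 and 2.15 RPKM in WT and 2.54, 2.55, 2.59 and 2.61 RPKM in ΔTAM. The U2af2 values of ΔTAM were close together and all above WT (log2 fold change 0.20, SE 0.04, adjusted p = 0.0051). Sf1, which binds the branch point, rose from 4.52 ± 0.107 to 4.87 ± 0.11 RPKM (SD, n = 4 each, adjusted p = 0.018). The genes for U2 snRNP subunits Sf3b1, Sf3a1 and Sf3b2 had log2 fold changes of 0.10, 0.09 and 0.02 and did not pass. Prpf8 (chr11:75486816-75509449), which encodes the core of the catalytic spliceosome, was at 5.82, 5.79, 6.04 and 5.93 RPKM in WT and at 5.78, 5.95, 5.88 and 5.88 RPKM in ΔTAM. The ranges overlapped, with a log2 fold change of -0.01 (SE 0.02, adjusted p = 0.865). Both U1 snRNP genes were measured below WT. Snrnp70 was at 3.87, 3.98, 4.02 and 3.95 RPKM in WT and at 3.56, 3.77, 3.78 and 3.73 RPKM in ΔTAM. It fell by 0.09 on the log2 scale (SE 0.03, adjusted p = 0.0334), but the call did not hold when WT replicate 2, 3 or 4 or ΔTAM replicate 1 or 4 was left out (adjusted p 0.0515 to 0.0824). Snrpa, at 2.47 ± 0.119 and 2.24 ± 0.157 RPKM (SD, n = 4 each), had the larger log2 fold change of -0.13 and more scatter. It did not pass (adjusted p = 0.103) but did with the replicate block (adjusted p = 0.0213).

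The CLK kinases phosphorylate SR proteins in the nucleus, and both genes are known to keep part of their transcripts in the nucleus with retained introns. Clk1 (chr1:58410189-58424066) was at 1.15, 0.982, 1.04 and 1.15 RPKM in WT and at 1.43, 1.17, 1.27 and 1.37 RPKM in ΔTAM. It rose by 21.2% (log2 fold change 0.25, SE 0.07, adjusted p = 0.0266), and the adjusted p passed 0.05 without WT replicate 2 (0.0635), WT replicate 3 (0.0661), ΔTAM replicate 1 (0.0581) or ΔTAM replicate 4 (0.0691). Clk4 (chr11:51261730-51281766) gave 0.318, 0.272, 0.265 and 0.293 RPKM in WT and 0.341, 0.262, 0.295 and 0.315 RPKM in ΔTAM. The WT range lay within that of ΔTAM, and the log2 fold change of 0.06 (SE 0.07) did not pass (adjusted p = 0.558).

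Of the 20 genes for hnRNPs and PTBP1, 9 rose and none fell, with a median of 0.13. The shares that rose and fell were 19.9% and 15.9% among all tested genes. Among those averaging 1 RPKM or more they were 26.1% and 17.5%. Within the A/B and D types, 2 of 7 rose, near the share of 26.1% that rose among all genes averaging 1 RPKM or more. Hnrnpa0 (chr13:58125879-58128556), an intronless gene whose protein binds AU-rich elements, stood at 14.4, 15.1, 14.6 and 13.1 RPKM in WT and at 16.8, 19.5, 18.6 and 17.2 RPKM in ΔTAM. The difference of 26.2% was larger than the scatter of either condition (log2 fold change 0.33, SE 0.06, adjusted p = 0.00424). Hnrnpab (chr11:51600100-51606847) gave 6.35, 6.34, 6.80 and 6.20 RPKM in WT and 6.46, 7.71, 7.39 and 7.34 RPKM in ΔTAM. A single library, ΔTAM replicate 1, lay within the WT range. The log2 fold change of 0.17 (SE 0.06) did not pass (adjusted p = 0.0556), and without that library it was 0.22 (adjusted p = 0.00566). The gene also passed with the filter at 1 RPKM and with voom (adjusted p = 0.0411 and 0.00347). Hnrnpa1 (chr15:103240432-103244955), the best known repressor of exon inclusion in this group, was at 28.3, 26.9, 28.1 and 28.3 RPKM in WT and at 28.7, 29.0, 28.7 and 30.6 RPKM in ΔTAM. The groups did not overlap, but the difference of 5.04% did not pass (log2 fold change 0.07, SE 0.03, adjusted p = 0.0996). Hnrnpa2b1, a reader of RNA sorting motifs, rose from 20.5 ± 0.802 to 22.9 ± 0.623 RPKM (SD, n = 4 each, adjusted p = 0.00796). Its close relative Hnrnpa3 was at 15.6 and 15.1 RPKM and did not pass. Hnrnpd (AUF1) and Hnrnpdl had log2 fold changes of 0.12 and 0.05 and did not pass either.

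In the group of hnRNP C, F/H, K, L, M, R and PTB, 6 of 10 rose. This count stands beside 19.9% of all tested genes and 26.1% of those averaging 1 RPKM or more. The other 4 genes of the group had log2 fold changes between -0.04 and -0.01. Hnrnpk (chr13:58391142-58403343), whose KH domains bind C-rich RNA, stood at 10.8, 10.6, 11.2 and 11 RPKM in WT and at 12.6, 13.3, 13.1 and 12.8 RPKM in ΔTAM. It rose by 19.0% with clear separation (log2 fold change 0.25, SE 0.03, adjusted p = 3.92e-04). Hnrnpl (chr7:28808541-28822266), which binds CA repeats, gave 5.93, 5.76, 6.05 and 5.82 RPKM in WT and 6.84, 7.21, 6.92 and 6.85 RPKM in ΔTAM. Its rise of 18.1% was much the same (log2 fold change 0.24, SE 0.03, adjusted p = 5.15e-04), whereas its paralog Hnrnpll was at 0.429 ± 0.016 and 0.425 ± 0.0115 RPKM (SD, n = 4 each). Hnrnpm rose from 1.32 to 1.52 RPKM (adjusted p = 0.00376) and Hnrnpc, which covers U-tracts, from 2.37 to 2.74 RPKM (adjusted p = 0.0133). Hnrnph1 and Hnrnph2, which bind G-runs, rose from 7.03 to 7.78 RPKM (adjusted p = 0.0329) and from 1.73 to 2.00 RPKM (adjusted p = 0.0392). Both were called with overlapping groups and each lost its call in 6 of the 8 fits that left out 1 library. Hnrnph1 kept it without WT replicate 4 or ΔTAM replicate 2, and Hnrnph2 without WT replicate 2 or ΔTAM replicate 2. Hnrnph2 also did not pass with the replicate block (adjusted p = 0.0997). Hnrnpf, the third member of that type, was at 0.777 and 0.775 RPKM. Ptbp1 (chr10:79854427-79864771), the repressor that binds polypyrimidine tracts and is high in stem cells, was at 7.42, 7.77, 7.68 and 7.24 RPKM in WT and at 7.05, 7.51, 7.45 and 7.23 RPKM in ΔTAM. These values overlapped, and the log2 fold change of -0.04 (SE 0.03) did not pass (adjusted p = 0.357) except after quantile normalization (-0.07, adjusted p = 0.0188).

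Of the 3 genes of the hnRNP U family, 1 rose, near the 26.1% that rose among all genes at 1 RPKM or more. Hnrnpu (chr1:178321108-178337797), or SAF-A, which binds chromatin-associated RNA, was at 9.02, 9.13, 9.54 and 9.76 RPKM in WT and at 10.4, 10.1, 10.2 and 10.8 RPKM in ΔTAM. It rose by 10.8% (log2 fold change 0.15, SE 0.03, adjusted p = 0.0123), and after quantile normalization the call was lost (adjusted p = 0.073). Hnrnpul1 (chr7:25721165-25754757) gave 1.30, 1.23, 1.24 and 1.17 RPKM in WT and 1.31, 1.32, 1.29 and 1.24 RPKM in ΔTAM, which overlapped (log2 fold change 0.06, SE 0.04, adjusted p = 0.25). Hnrnpul2 was at 3.60 and 3.71 RPKM and did not pass.

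Of the 25 calls, 17 rises held in all 18 alternative analyses in which the gene could be tested, and no called gene changed direction in any of them. The 8 calls that were lost at least in 1 were those of Srsf7, Srrm1, Clk1, Hnrnph1, Hnrnph2 and Hnrnpu among the rises and of both genes that fell.

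Because the deposited RPKM values divide by the whole gene span, introns included, levels were compared between genes as reads per 1000 bases of the principal transcript and 1000000 reads on genes. On that scale the WT level spanned from 1.76 for Srsf12 to 741 for Hnrnpa2b1. The order was led by hnRNP genes, with Hnrnpa2b1 at 741 ± 30.8, Hnrnpa3 at 641 ± 23.5, Hnrnpa1 at 441 ± 11.9 and Hnrnpk at 334 ± 8.45 (SD, n = 4). These neighbours were separated by more than their SDs. Snrnp70 followed at 295 ± 4.7 and Srsf5, the highest SR protein, at 264 ± 12. Many neighbours further down could not be separated, such as Ptbp1 at 168 ± 4.96, U2af1 at 166 ± 7.65 and Hnrnpdl at 165 ± 3.24. Srsf3 (124 ± 1.94) and Srsf6 (87.6 ± 1.71) were in the middle of the range, so the most changed genes were not the most abundant. In ΔTAM Srsf3 was at 156 ± 4.5 and Srsf6 at 112 ± 4.67. The speckle scaffold Srrm2 (123 ± 5.55) was higher than Son (49.5 ± 1.17) in WT. The lowest tested genes were Hnrnpr at 5.25 ± 0.262 and Srsf4 at 12.3 ± 0.603. Hnrnpr had more reads than Srsf4 (733 to 970 per library against 201 to 297), and its place rests on a principal transcript model of 21452 bases, the longest of the 51.

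All 51 genes together took 1.98 to 2.06% of the reads on genes in WT and 2.16 to 2.19% in ΔTAM. The hnRNPs and PTBP1 accounted for 0.972 to 1.01% in WT and 1.06 to 1.10% in ΔTAM, and the SR proteins for 0.272 to 0.288% and 0.308 to 0.316%. None of these ranges overlapped between the conditions. Among all genes tested singly, 20.5% lay entirely higher and 16.7% entirely lower in ΔTAM. The sums rest on the same reads as the calls above, and sums over other sets of genes were not compared.

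A group of the genes also varied with the replicate number. For Clk1, Clk4, Pnn, Rbm25, Srsf11, Tra2a and Srrm2 the replicates numbered 1 and 4 were the highest libraries of both conditions. Without Clk4 and Rbm25, which averaged less than 1 RPKM, they were 5 of the 44 splicing genes that averaged 1 RPKM or more, and 2.0% of all 2148 genes at that level showed this order without a tie at 3 digits. Pnn was at 3.56 and 3.79 RPKM in WT replicates 1 and 4 and at 3.31 and 3.46 RPKM in WT replicates 2 and 3. In ΔTAM it was at 4.00 and 3.54 RPKM in replicates 1 and 4 and at 3.00 and 3.18 RPKM in replicates 2 and 3. Rbm25 was at 1.06 and 1.14 RPKM against 0.918 and 0.95 RPKM in WT, and at 1.10 and 1.04 RPKM against 0.851 and 0.906 RPKM in ΔTAM. The order with replicates 2 and 3 highest in both conditions was found for 5 of the 44 genes, near the 11.1% of those 2148 genes, replicates 1 and 2 were highest for 2 (4.28% of the genes) and replicates 3 and 4 for 1 (1.63%). Neither other order was found. The genes were picked for this order after their values were seen, and the labels do not say what a replicate number stands for.

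**Figure D5:**
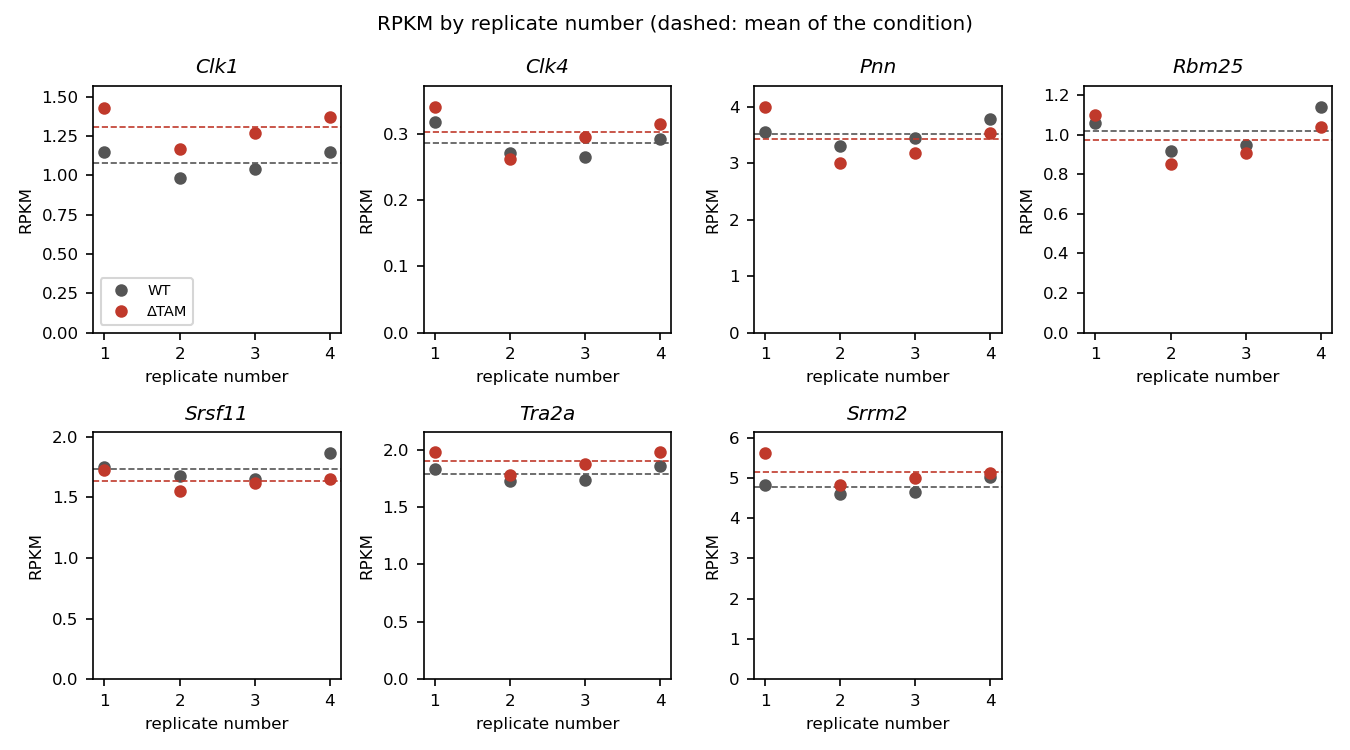
RPKM (vertical axes, from 0) by replicate number for 7 splicing genes in WT and ΔTAM, with a dashed line at the mean of each condition. In each gene the replicates 1 and 4 of a condition lie above its replicates 2 and 3.

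The wider splicing machinery was followed in 6 lists, whose counts stand beside the 19.9% of all tested genes that rose and the 15.9% that fell. Of the 22 genes for U1, U2 and Sm proteins, 6 rose and none fell, with a median log2 fold change of 0.04. The U2 subunit Sf3b4 had the largest change, from 1.61, 1.64, 1.72 and 1.51 RPKM in WT to 2.14, 2.24, 2.13 and 2.12 RPKM in ΔTAM (log2 fold change 0.39, adjusted p = 3.17e-04). Sf3b3 of the same complex rose by 23.2% (adjusted p = 0.00136). Of the 25 genes for the tri-snRNP and for spliceosome activation, 14 rose and 1 fell, with a median of 0.10. With the replicate block 7 rose, and 9, 9, 9, 8 and 7 did without WT replicate 1, WT replicate 3, ΔTAM replicate 2, ΔTAM replicate 3 and ΔTAM replicate 4. Sart1, a tri-snRNP protein, rose from 1.16 ± 0.07 to 1.43 ± 0.0862 RPKM and Prpf4, of the U4/U6 particle, from 0.801 ± 0.0253 to 0.945 ± 0.0176 RPKM (SD, n = 4 each, adjusted p = 0.00649 and 9.77e-04). The exon junction and nonsense-mediated decay list had 3 of 16 genes higher, a share near that of all genes, with a median of 0.03. The count was 1 without WT replicate 1 or 4 or ΔTAM replicate 2, 3 or 4. The RNA helicase Eif4a3 (1.76 to 2.05 RPKM) passed with an adjusted p of 0.0304 but not with the replicate block (0.0609), and Rbm8a rose by 10.3% (adjusted p = 0.00203).

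Of 13 genes in a list of SR protein kinases and phosphatases that also holds related kinases and cyclins, 6 rose and none fell, with a median of 0.11. Leaving out 1 library gave 3 to 5 higher, with 3 without WT replicate 3 or ΔTAM replicate 1. Srpk1, the cytoplasmic kinase that licenses SR proteins for nuclear import, was at 0.816, 0.796, 0.823 and 0.844 RPKM in WT and at 1.11, 1.14, 1.16 and 1.09 RPKM in ΔTAM. Its rise of 37.1% exceeded that of all 50 splicing genes above (log2 fold change 0.41, adjusted p = 6.4e-05). Cdk12, a kinase of the RNA polymerase II tail, rose from 0.175 ± 0.00714 to 0.267 ± 0.0091 RPKM (SD, n = 4 each, adjusted p = 1.06e-04). Among 33 other regulators of alternative splicing the calls went both ways, with 11 higher and 7 lower (7 higher with the replicate block) and a median of 0.01. The cold-inducible Rbm3 rose by 40.1% (adjusted p = 0.00145) and Taf15, an RNA-binding protein of the FET family, fell by 23.8% (adjusted p = 0.00333).

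Of the 15 speckle and paraspeckle genes, 7 rose and 3 fell, with a median of 0.01. Malat1 (chr19:5795690-5802672), the long noncoding RNA of speckles, was at 8.39, 8.02, 8.11 and 9.53 RPKM in WT and at 6.16, 4.91, 6.17 and 7.06 RPKM in ΔTAM. It was lower in every ΔTAM library (log2 fold change -0.49, SE 0.11, adjusted p = 0.0105), opposite in sign to Son and Srrm1. The mRNA export receptor Nxf1 rose by 27.3% (log2 fold change 0.33, adjusted p = 1.56e-04).

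The region before the start of a gene was then read for features that the choice of genes did not use. RefSeq promoter windows (GRCm38.p6, 250 bases before to 50 after the start) matched 47 of the 51 genes, and Clk1, Hnrnpll, Hnrnpul2 and U2af2 had no window. Their median GC content was 63.3%, against 61.0% for the 6295 windows of tested genes, and their median number of CpG dinucleotides was 27 against 22. Short motifs were searched on both strands as exact letters, and matches could overlap each other. The letters CCAAT, which NF-Y binds, were found in 55.3% of the 47 windows, in 41.3% of the windows of tested genes and in 37.9% of all 27025. The GC box of SP1-type factors, GGGCGG, was in 70.2% of the 47 windows, 68.2% of those of tested genes and 36.0% of all, and the TATA box, as TATAAA, was in 12.8%, 6.2% and 14.2%. For the core of ETS factors, CCGGAAG, the shares in the same order were 21.3%, 22.7% and 9.16%. The core bound by NRF1, written GCATGCGC, gave shares of 10.6%, 6.83% and 2.8%. For YY1, searched as AAGATGG, the shares were 8.51%, 8.48% and 6.49%. The cyclic AMP response element, TGACGTCA, gave 6.38%, 3.81% and 1.88%. For the E-box, with the letters CACGTG, they were 12.8%, 11.2% and 7.23%. These matches describe letters in the window and were not tested.

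The 250 bases before the RefSeq start are shown for the genes with the largest rises, Srsf6, Srsf3 and Hnrnpa0, and for Rbm39, which showed the largest fall, in the direction of transcription with matches in capitals. Srsf6 (chr2:162931258-162931507, + strand) has reversed GC boxes, with the letters CCGCCC, 106 and 23 bases before the start. Srsf3 (chr17:29032410-29032659, + strand) has a reversed CCAAT at 58 and TATAAA at 18. Hnrnpa0 (chr13:58128557-58128806, - strand) has GC boxes at 135 and 94 and a reversed CCAAT at 66, and Rbm39 (chr2:156180239-156180488, - strand) has reversed CCAAT letters at 132 and 83.
Srsf6: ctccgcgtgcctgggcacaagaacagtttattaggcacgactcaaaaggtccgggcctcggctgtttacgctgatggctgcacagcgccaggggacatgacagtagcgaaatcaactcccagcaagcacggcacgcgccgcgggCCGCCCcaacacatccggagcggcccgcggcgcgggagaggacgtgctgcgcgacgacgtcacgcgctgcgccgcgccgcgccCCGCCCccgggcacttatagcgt
Srsf3: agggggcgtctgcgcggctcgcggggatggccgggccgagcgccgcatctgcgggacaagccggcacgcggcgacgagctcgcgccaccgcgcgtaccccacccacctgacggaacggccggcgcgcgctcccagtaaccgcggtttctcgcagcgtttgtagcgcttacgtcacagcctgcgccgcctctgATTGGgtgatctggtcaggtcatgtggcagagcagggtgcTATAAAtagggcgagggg
Hnrnpa0: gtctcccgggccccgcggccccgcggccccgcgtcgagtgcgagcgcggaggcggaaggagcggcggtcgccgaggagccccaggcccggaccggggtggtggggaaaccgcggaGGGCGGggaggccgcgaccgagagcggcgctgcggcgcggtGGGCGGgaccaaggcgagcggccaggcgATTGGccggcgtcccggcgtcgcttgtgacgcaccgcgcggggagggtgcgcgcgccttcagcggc
Rbm39: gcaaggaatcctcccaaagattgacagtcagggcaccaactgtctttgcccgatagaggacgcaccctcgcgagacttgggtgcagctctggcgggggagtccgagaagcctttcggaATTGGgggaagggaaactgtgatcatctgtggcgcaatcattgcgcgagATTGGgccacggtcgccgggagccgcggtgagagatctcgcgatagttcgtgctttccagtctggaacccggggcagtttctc

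Transcript models gave another shared feature. In GENCODE vM21 (mm10), 35 of the 51 genes (68.6%) have a transcript annotated to undergo nonsense-mediated decay, against 20.8% of the 21551 matched protein-coding genes. A transcript with a retained intron is annotated for 42 of them (82.4%), against 41.8%. Values were deposited per gene, so reads of these forms could not be separated from those of the coding transcripts.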

How the data were processed

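Libraries were made from polyA RNA with the TruSeq Stranded mRNA kit. According to the study's methods and the submitters' processing notes, the authors trimmed reads with Trimmomatic, aligned them with STAR to mm10, counted reads over exons per gene and deposited RPKM values. Whether strand was used, how reads with several matches were treated and the annotation release are not given in the sources used here, so members with close paralogs or processed pseudogenes are uncertain. The processing notes give Trimmomatic version 0.36 and the methods another version, and the labels and the methods name different sequencers. The files show that the RPKM denominator was the genomic span of the gene. Whole reads were recovered from the deposited RPKM values (99.94 to 99.97% of values up to 200 reads were within 0.1 of a whole multiple), which gave 6573212 to 8680058 reads on genes per library, 14.8 to 15.0% of the library totals that the RPKM values imply.

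Of 51288 gene entries, 386 repeats of a gene symbol with proportional values were set aside. The test was limma (3.58.1 in R 4.3.3, eBayes with trend) on log2(RPKM + 0.1) over genes averaging 0.1 RPKM or more, with Benjamini-Hochberg adjustment over all 9000 genes and a threshold of 0.05. Fold changes on this scale understate those of low genes. Alternatives were pseudocounts of 0.01 and 1, no filter, a filter at 1 RPKM, median-ratio scaling, quantile normalization, eBayes without the trend and robust eBayes, a replicate block, voom on recovered reads (mean of at least 10 reads) and leaving out each library. Same-numbered libraries of the 2 conditions deviated together from their condition means (r = 0.332, 0.144, 0.196 and 0.237 for replicates 1 to 4). The replicate block took the numbers to pair these libraries, whereas the main test, which gave the calls, was unpaired. Scripts were tested on simulated data.

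The members, role groups and lists were chosen with earlier results of these data known. Named in full were Son, Srrm2, both CLK kinases, the 2 genes of each larger role group with the largest absolute log2 fold change, Srsf2, Hnrnpa1, Hnrnpk, Hnrnpu, Ptbp1, U2af2 and Prpf8, the 2 called genes of each pathway list with the largest change, and Malat1. Snrnp70, Srsf1, Srsf4, Srsf7 and other genes given beside these were added after their values were seen. Srsf8 and Ddx39a of the pathway lists were not analysed here.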

Additional observations from a re-analysis of the deposited data

Results flagged for a closer look

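In 7 of the 102 groups of 4 libraries (51 genes in 2 conditions), 1 library stood apart from the other 3 by a gap that is large against the range of its group. Chance gives such a gap in about 1 of 20 groups. For Hnrnpa1, Hnrnpdl and Hnrnpf the library was WT replicate 2, which was the lowest of WT at 26.9, 10.8 and 0.75 RPKM, with the others at 28.1 to 28.3, 11.2 and 0.784 to 0.79 RPKM. Sf3b1 was highest in WT replicate 4 at 1.99 RPKM, with the others at 1.82 to 1.84. Without that library Sf3b1 passed the test with a log2 fold change of 0.13 (limma adjusted p = 0.0227). Hnrnpc was highest in WT replicate 3 at 2.52 RPKM, with the others at 2.30 to 2.34. In ΔTAM, replicate 3 gave 0.197 RPKM for Srsf4 against 0.182 to 0.183, and 0.34 RPKM for Hnrnpr against 0.344 to 0.345.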

How the results depend on the processing

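Over the 50 splicing genes, 18 to 28 rose and 0 to 4 fell in the alternatives, and no called gene changed direction. The number that fell was 4 after quantile normalization and 0 to 2 when 1 library was left out (0 without WT replicate 2 or 4), while 19 to 23 rose. Over all genes, 1440 to 1713 rose and 1137 to 1387 fell with 1 library left out, and 1557 and 1239 with the replicate block. The median log2 fold change was 0.073 with a pseudocount of 1, 0.072 after quantile normalization and 0.095 to 0.117 with 1 library left out. Of the genes not called, 6 (Pnn, Sf3b2, Prpf8, Hnrnpf, Hnrnpll and Hnrnpr) changed sign with some library left out. Prpf8 did without WT replicate 3 (0.0058) or ΔTAM replicate 1 (0.0020) within a range of -0.0141 to 0.0058. With the replicate block 21 rose and 3 fell: beside Srsf7, Hnrnph2 and Snrpa, no other call among the 50 changed. Over all genes, 590 rose and 399 fell with the filter at 1 RPKM, where fewer genes are tested, and 2773 and 2775 with voom on recovered reads, against 1790 and 1435.

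For the tri-snRNP and activation list the number higher was 9 with no filter, 6 of 11 with the filter at 1 RPKM (and 0 lower), 7 with the replicate block and 7 to 11 with 1 library left out. For U1, U2 and Sm proteins the number lower was 1 after quantile normalization, 2 with voom and 0 to 1 with 1 library left out. For exon junction and decay genes 1 was higher with no filter and 1 to 3 with 1 library left out, and the number lower was 1 with voom and 0 to 1 with 1 library left out. For the kinases 0 of 3 were higher with the filter at 1 RPKM, and 3 to 5 with 1 library left out, and 1 was lower with voom. For the other regulators 4 of 10 were higher and 1 lower with the filter at 1 RPKM, and 7 were higher with the replicate block. For speckle and paraspeckle genes 6 were lower with voom. The cause of these differences was not tested. The 4 libraries per condition limit the precision.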
